A study of Mus musculus with 2 samples.

Results

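Cartilage is held together by a set of secreted matrix proteins, and 9 of their genes, Acan, Comp, Chad, Cilp, Cilp2, Ucma, Matn3, Matn4 and Hapln1, were followed here across single cells of mouse limb tendon. They were chosen by symbol, with earlier results of these data known, and all 9 were found among the 27998 genes of both libraries. The paper already lists Cilp2 and Matn4 among the genes most downregulated in mutant cells. Counts of the 9 set beside all genes are therefore descriptions and no independent support. The study asked what happens to tendon cells when TGFβ signaling is removed from the Scx lineage. Its mutant carries Tgfbr2 f/- with ScxCre, a Cre recombinase driven by Scx, the gene of the tendon transcription factor scleraxis. Each of the 2 libraries came from fore- and hindlimb tendons of 2 pups pooled at postnatal day 7, and both groups carried the ScxGFP tendon reporter and the Ai14 RosaT Cre reporter. The control is labelled wild type in its title and genotype and "Het" in its description, and which of these applies was not resolved. A condition is 1 library, so replicate spread cannot be measured and no test was run. Intervals are exact 95% intervals that cover counting error only, and batch, litter and genotype cannot be told apart.

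Aggrecan (Acan) is the large proteoglycan that holds water in cartilage, and Hapln1 encodes the link protein that fixes it to hyaluronan. Comp is a pentameric glycoprotein that binds collagen fibrils, the matrilins Matn3 and Matn4 are adaptors between collagen and proteoglycan networks, and chondroadherin (Chad) is a small leucine-rich repeat protein that binds cells and collagen. Cilp and Cilp2 are a pair of related intermediate layer proteins of cartilage, and Ucma is a small protein with γ-carboxylated glutamates made by young chondrocytes. Tendon also makes several of these proteins. Col2a1, the main fibrillar collagen of cartilage, served as the partner gene.

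In this assay the 3′ ends of mRNA are counted per cell, and a unique molecular identifier (UMI) marks every captured molecule. The library labelled wild-type held 2364 cells and 9451606 UMIs, and the mutant-labelled library 2592 cells and 8250248 UMIs. Cells with 30 or more Scx UMIs per 10000 are called Scx-high, and their Scx counts include ScxGFP transcripts. There were 1178 such cells in the wild-type-labelled library, with a median of 4285.5 UMIs, and 235 in the mutant-labelled library, with a median of 4251. The remaining cells with collagens and proteoglycans of connective tissue are called Scx-low mesenchymal, 744 and 1841 cells. The tendon marker Tnmd had a UMI in 99.7% of Scx-high cells labelled wild-type and in 84.3% of those labelled mutant. Of 14 cartilage cell markers, Col2a1 among them, 10 had a UMI in Scx-high cells labelled wild-type and 11 in those labelled mutant. They summed to 929 and 193 CPM, of which Col2a1 alone gave 861 and 114, so the sums differ mainly by Col2a1. Matn1, Col10a1 and Snorc were at 0 in both, Sox9 had 59 and 12 UMIs, Epyc 58 and 42 and Col9a2 87 and 6. Col2a1, 1 of the 14, had a UMI in 88.6% of Scx-high cells labelled wild-type and in 29.8% of those labelled mutant. At least 2 of the 14 were detected in 210 Scx-high cells labelled wild-type (17.8%) and in 14 labelled mutant (5.96%). Without those cells the number of the 9 genes at least 2-fold lower in Scx-high cells labelled mutant was the same (3), as was the number at least 2-fold higher in Scx-high than in Scx-low mesenchymal cells labelled wild-type (8), and the latter number in the mutant-labelled library was 8 in place of 7. There were 15 Scx-high cells in the mutant-labelled library that met the rule for muscle cells. They held 334 UMIs of Myog and 9 of Comp, while no other of the 9 genes had more than 3 UMIs there. Another 4 met the rule for Schwann-type and 2 that for vessel-wall (mural) cells. In the wild-type-labelled library 16 Scx-high cells met the rule for immune cells, 7 for mural, 1 for endothelial and 1 for haemoglobin-rich cells. Levels are given as counts per 1000000 UMIs of the class (CPM). Tgfbr2 itself was at 30.9 CPM (26.2 to 36.2) in Scx-high cells labelled wild-type and 45.2 (33.5 to 59.8) in those labelled mutant. The sources used here do not say which exons are deleted, so a count of 3′ ends does not check the labels. Of the cell barcodes, 2 occurred in both libraries, none of them in a Scx-high cell.

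In the wild-type-labelled library, most of these genes were concentrated in Scx-high cells. Of the 9 genes, 8 were at least 2-fold higher there than in Scx-low mesenchymal cells, against 5.03% of 8544 genes with at least 50 UMIs. Ucma had 661 UMIs in Scx-high cells and 5 in Scx-low mesenchymal cells, or 134 against 1.78 CPM, a ratio of 75.7 (32.3 to 234). Matn3 had 117 UMIs against 0, 22.3-fold higher when the empty class is set at 3 counts, with an exact interval of the ratio that begins at 17.9. Acan stood at 247 against 20.3 CPM, Chad at 131 against 11.7 and Cilp2 at 654 against 71.5. These 3 ratios were 12.2 (9.34 to 16.2), 11.2 (7.86 to 16.3) and 9.15 (7.93 to 10.6). Matn4 was 7.03-fold higher (5.84 to 8.51), Comp 4.02-fold (3.62 to 4.47) and Hapln1 2.40-fold (1.56 to 3.79). Cilp went the other way, with 51.3 CPM in Scx-high and 85.7 in Scx-low mesenchymal cells, a ratio of 0.598 (0.50 to 0.717).

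**Figure D1:**
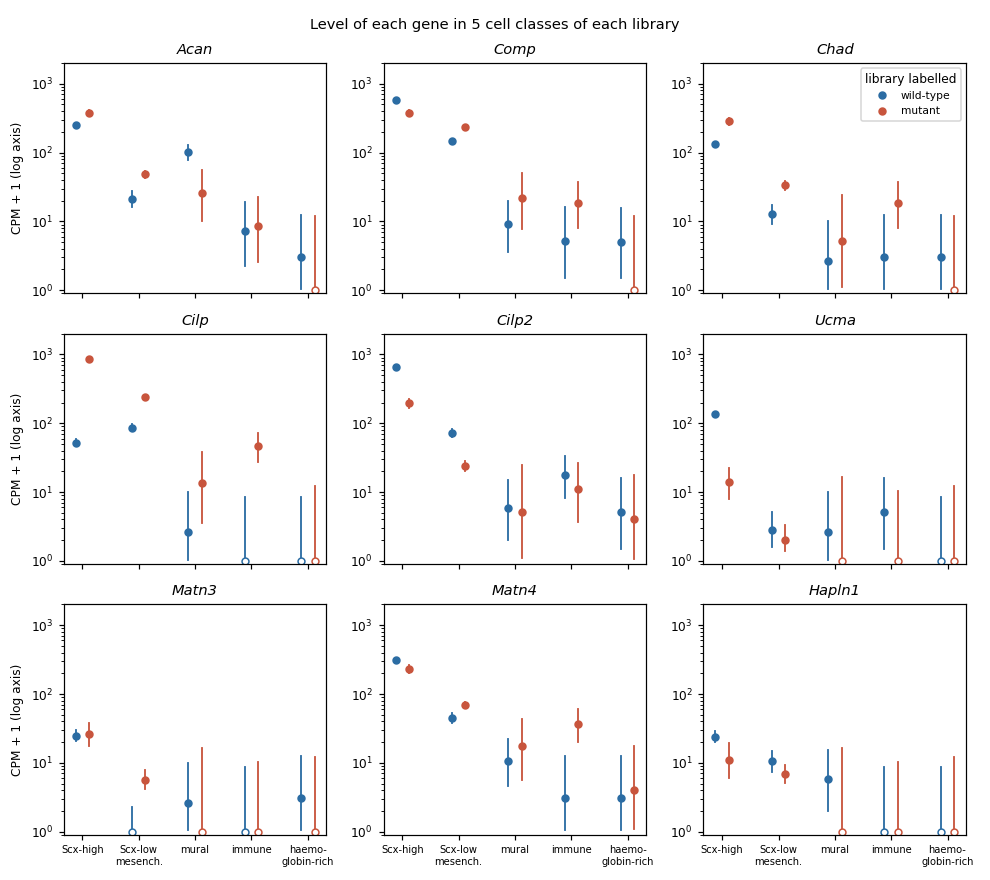
Level of each gene as CPM plus 1, on a log axis, in 5 cell classes of the wild-type-labelled library (blue) and the mutant-labelled library (red). Points are the summed UMIs of the class per 1000000, lines are exact 95% counting intervals, and open points mark a class with 0 UMIs. Cilp is the gene whose Scx-high point lies below its Scx-low point in blue (51.3 against 85.7 CPM) and above it in red (862 against 242 CPM).

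The mutant-labelled library had 6 of the 7 members with 50 or more UMIs at least 2-fold higher in Scx-high cells, against 4.82% of 8534 genes. Ucma was higher too, on 14 and 6 UMIs, which makes 7 of the 9. Cilp was now among them, with 862 CPM against 242, a ratio of 3.56 (3.27 to 3.87). Comp was at 377 CPM in Scx-high and 236 in Scx-low mesenchymal cells, a ratio of 1.59 (1.42 to 1.78), and Hapln1, with 11 and 34 UMIs, had an interval that spans 1 (0.785 to 3.47). Acan (7.79), Chad (8.76) and Cilp2 (8.46) kept ratios of that order.

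Among Scx-high cells, the genes split in direction between the libraries rather than moving as a set. This class need not hold the same kind of cell in both libraries. The paper describes mutant cells positive for ScxGFP at this age as newly recruited tendon cells. In Scx-high cells 10 tendon cell markers, Col1a1 and Col1a2 among them, summed to 136342 CPM labelled wild-type and 44027 labelled mutant. The part of this in the ratios was not tested. Cilp2, Ucma and Hapln1 were at least 2-fold lower in the mutant-labelled library, 3 of 9 against 5.87% of 7467 genes, and Chad and Cilp were at least 2-fold higher, 2 of 9 against 10.7%. The median log2 ratio of all 7467 genes was 0.28, and relative to that median Chad falls below 2-fold (log2 0.84). Col2a1, by comparison, was 7.52-fold lower (6.29 to 9.07), 114 against 861 CPM.

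Cilp and its relative Cilp2 differed between the libraries in opposite directions. Cilp lies at chr9:65265180-65280605 of GRCm38 (mm10), on the plus strand, and Cilp2 at chr8:69880369-69887687 on the minus strand. In Scx-high cells Cilp stood at 51.3 CPM (252 UMIs) in the wild-type-labelled library and 862 CPM (934 UMIs) in the mutant-labelled library, 16.8-fold higher (14.6 to 19.4). Cilp2 stood at 654 CPM (3214 UMIs) and 193 CPM (209 UMIs), 3.39-fold lower (2.95 to 3.92). With each cell thinned to 1500 UMIs, which left 1089 and 216 cells, 51.9% of the cells labelled wild-type had a UMI of Cilp2 without Cilp and 3.58% the reverse. For the mutant-labelled library, 11.1% had Cilp2 without Cilp and 37.0% Cilp without Cilp2, while 10.6% had both. Cells with both were near the number that independent detection gives. There were 36 labelled wild-type against 41.4, and 23 labelled mutant against 22.4.

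Ucma (chr2:4976122-4985748, plus strand) had the lowest ratio of the 9, 134 CPM in Scx-high cells labelled wild-type and 12.9 in those labelled mutant, 10.4-fold lower (6.16 to 19.1). Its mutant value rests on 14 UMIs in 11 cells, against 661 UMIs in 329 cells. The 250 bases before the RefSeq start sites of Cilp, Cilp2 and Ucma (GRCm38.p6) are shown because these genes had the largest ratios, written 5′ to 3′ on the gene's strand. Capitals mark a match to CAGATG, an E-box of the kind bound by scleraxis, ACAATG, a Sox-type site, or CAGACA, a Smad-type site, searched on both strands.
Cilp, chr9:65264930-65265179, plus strand: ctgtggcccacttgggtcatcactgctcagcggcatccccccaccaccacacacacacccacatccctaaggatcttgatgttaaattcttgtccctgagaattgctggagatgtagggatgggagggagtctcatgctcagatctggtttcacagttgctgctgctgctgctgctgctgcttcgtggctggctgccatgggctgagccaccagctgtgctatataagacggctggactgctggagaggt
Cilp2, chr8:69887393-69887642, minus strand: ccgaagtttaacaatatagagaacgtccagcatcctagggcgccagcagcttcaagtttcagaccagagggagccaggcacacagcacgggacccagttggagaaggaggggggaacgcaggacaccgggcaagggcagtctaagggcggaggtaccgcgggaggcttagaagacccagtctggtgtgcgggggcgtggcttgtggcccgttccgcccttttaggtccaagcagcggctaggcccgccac
Ucma, chr2:4975872-4976121, plus strand: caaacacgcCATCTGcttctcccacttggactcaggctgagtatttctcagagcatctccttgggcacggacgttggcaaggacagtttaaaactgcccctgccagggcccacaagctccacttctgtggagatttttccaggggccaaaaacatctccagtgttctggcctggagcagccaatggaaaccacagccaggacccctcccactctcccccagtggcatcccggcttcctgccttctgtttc
The match in the Ucma window begins 241 bases before the start. Promoters were listed for 8 of the 9 genes, in 9 windows, of which 1 held CAGATG, 0 held ACAATG and 1, that of Matn3, held CAGACA. Over all 32841 promoter windows of this length the shares were 14.4%, 10.7% and 17.1%. Matched letters are a description of the window and no measure of binding.

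Acan and Hapln1, aggrecan and its link protein, differed in direction in Scx-high cells. Acan (chr7:79053483-79115099, plus strand) was at 247 CPM (233 to 261) in Scx-high cells labelled wild-type and 373 (338 to 411) in those labelled mutant, 1.51-fold higher (1.35 to 1.69). Hapln1 (chr13:89539796-89611652, plus strand) was at 23.0 CPM and 10.2 CPM, 2.26-fold lower (1.22 to 4.66), on 113 and 11 UMIs, of which 13 and 2 were in 1 cell. In Scx-low mesenchymal cells Acan was 2.36-fold higher in the mutant-labelled library (1.77 to 3.20), and the interval of Hapln1 spanned 1, a ratio of 0.616 (0.361 to 1.06).

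Among the fibril-binding and adaptor proteins, Comp (chr8:70373558-70382066, plus strand) was at 580 CPM in Scx-high cells labelled wild-type and 377 in those labelled mutant, a ratio of 0.650 (0.584 to 0.721). Matn4 (chr2:164389393-164405160, minus strand) was at 307 and 230 CPM, a ratio of 0.748 (0.652 to 0.856). That direction was not kept at matched Scx. When only cells with 100 to 300 Scx UMIs per 10000 were compared, the log2 ratio of Matn4 went from -0.42 to 0.21. Intervals of the libraries overlapped in that range, so neither direction was resolved there. At 100 to 200 they were 276 to 334 CPM labelled wild-type and 275 to 466 labelled mutant. At 200 to 300 they were 305 to 365 and 293 to 475 CPM. Matn3 (chr12:8947929-8972028, plus strand) was at 23.8 and 24.9 CPM, and the interval of its ratio, 0.662 to 1.60, spans 1. Chad (chr11:94565047-94569127, plus strand) was at 131 and 283 CPM, 2.17-fold higher (1.89 to 2.49). Chad, Matn4 and Hapln1 overlap a gene on the opposite strand (Acsf2, Rbpjl and the pseudogene Gm8546), and the strand setting of the counting is not given in the sources used here.

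In Scx-low mesenchymal cells, 1 of the 9 was at least 2-fold lower in the mutant-labelled library, against 4.41% of 9237 genes, and 4 were at least 2-fold higher, 3 of them among the 7 members with 50 or more UMIs, against 4.21%. Cilp2 was the lower gene, at 71.5 and 22.8 CPM, 3.13-fold lower (2.5 to 3.94). Acan, Chad at 2.76 (1.90 to 4.13) and Cilp at 2.83 (2.47 to 3.26) were the higher ones with 50 or more UMIs. Matn3 had 0 UMIs in the wild-type-labelled library and 27 in the mutant-labelled library, 4.41-fold higher when the empty class is set at 3 counts, with an exact interval that begins at 3.34. Comp and Matn4, lower in Scx-high cells, were higher here, 1.64-fold (1.46 to 1.83) and 1.55-fold (1.26 to 1.92). Ucma had 5 and 6 UMIs. With every cell weighted equally, Acan, Chad and Cilp fell below 2-fold, at log2 ratios of 0.73, 0.64 and 0.89. A cell with little Scx is in this class whatever its origin, so the class need not hold the same kinds of cells in both libraries. By the RosaT reporter, the paper traces ScxGFP-negative cells within mutant tendons to tenocytes. In Scx-high cells labelled wild-type Comp was at 580 CPM and Matn4 at 307, against 236 and 67.9 in Scx-low mesenchymal cells labelled mutant. Acan was at 247 and 47.9 CPM in that comparison and Chad at 131 and 32.4, while Cilp went the other way, at 51.3 and 242 CPM. Over whole libraries Acan and Chad were lower in the mutant-labelled library, at ratios of 0.592 (0.539 to 0.650) and 0.869 (0.773 to 0.976). Of the 9 genes only Cilp was higher there, at 5.48 (4.98 to 6.06). Scx-high cells were 49.8% of cells labelled wild-type and 9.07% of those labelled mutant.

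**Figure D2:**
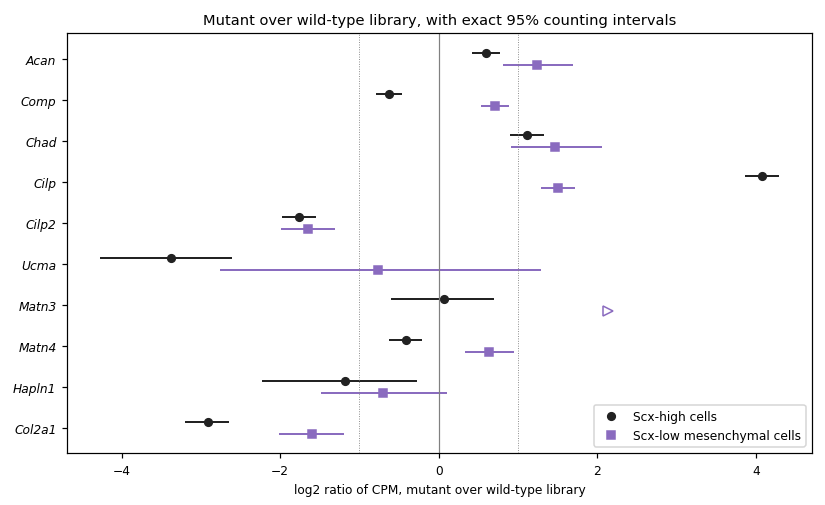
Ratio of the mutant-labelled library over the wild-type-labelled library, as log2 of the CPM ratio with exact 95% counting intervals, in Scx-high cells (black circles) and Scx-low mesenchymal cells (violet squares). Dotted lines mark 2-fold, and the open triangle is the value for Matn3 with its empty wild-type class set at 3 counts. Comp and Matn4 lie left of the zero line in black (ratios 0.650 and 0.748) and right of it in violet (1.64 and 1.55).

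The levels followed Scx in different ways. A low Scx count need not mean the same in both libraries. Scx had a UMI in 63.2% of vessel-wall (mural) cells labelled wild-type and in 11.25% of those labelled mutant. Scx-high and Scx-low mesenchymal cells were grouped by their Scx level. In the wild-type-labelled library, Ucma was at 0 CPM without a Scx UMI. It was at 42.3 in cells with 30 to 100 Scx UMIs per 10000 and at 175 in cells above 300. Comp and Cilp2 were already at 472 and 343 CPM in the 100 cells with 10 to 30, close under the threshold for Scx-high. Cilp was highest in that same range, at 262 CPM, and stood at 38.5 CPM above 300. Below the threshold Cilp rose in both libraries, from 51.0 CPM without a Scx UMI in the wild-type-labelled library. In the mutant-labelled library Cilp went from 164 CPM without a Scx UMI to 822 at 10 to 30. There it was at 541 CPM at 30 to 100 and, unlike in the wild-type-labelled library, highest above 300, at 1139 CPM. Acan went from 25.8 to 475 CPM in the mutant-labelled library. Matn4 was at 376 CPM in the 39 cells labelled mutant with 200 to 300 and at 85.0 CPM in the 66 above 300. Cells near the threshold were also taken whatever their class. Just outside it (20 to 30 per 10000) Cilp was at 310 CPM in 42 cells labelled wild-type and 670 in 27 labelled mutant. Just inside (30 to 45) Cilp was at 203 in 37 and 462 in 34.

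**Figure D3:**
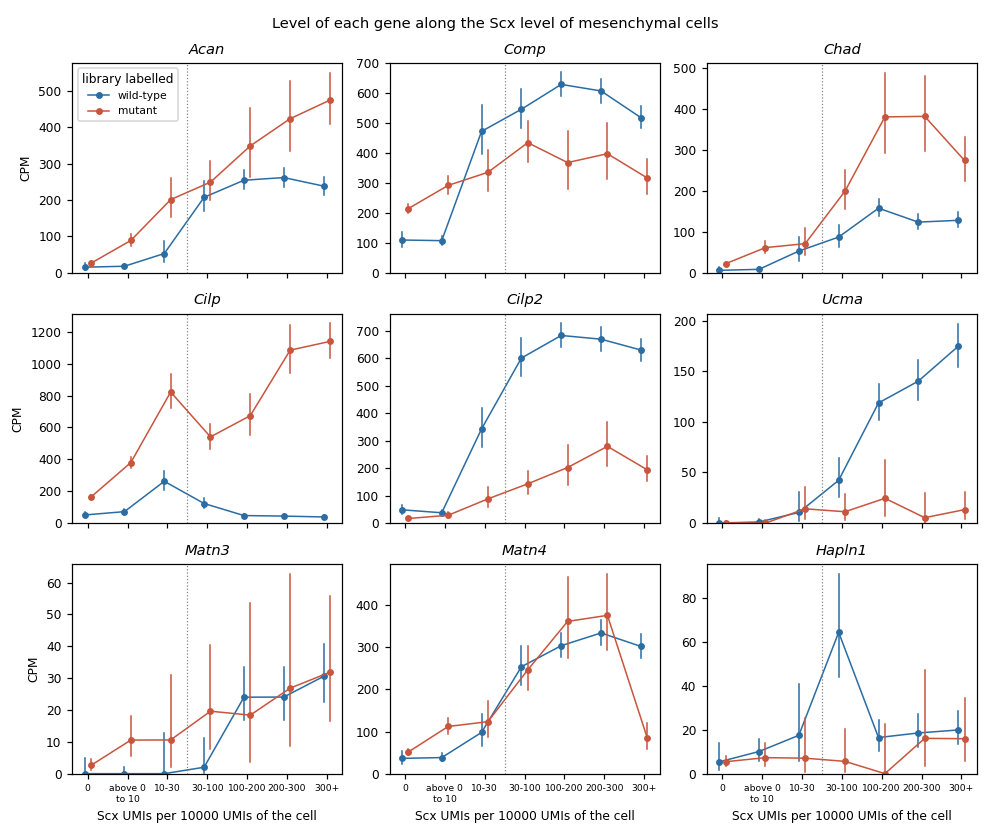
CPM of each gene in Scx-high and Scx-low mesenchymal cells grouped by Scx UMIs per 10000, with exact 95% counting intervals. The wild-type-labelled library is in blue and the mutant-labelled library in red. The dotted line is the threshold for Scx-high, and the vertical scale differs between panels. Cilp runs from 262 CPM at 10 to 30 down to 38.5 CPM above 300 in blue and reaches 1139 CPM in red.

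The UMIs were spread unevenly over Scx-high cells. Cilp2 and Comp were broad in the wild-type-labelled library, with a UMI in 83.9% and 78.9% of cells, and fewer cells had one in the mutant-labelled library, 35.7% and 58.3%. Chad was narrow, with a UMI in 19.8% of cells labelled wild-type, and the 10% of cells with the most Chad held 79.6% of its UMIs. Cilp had 0 UMIs in 89.8% of cells labelled wild-type, whereas 31.5% of cells labelled mutant had 5 or more and 1 cell had 40. Matn4 was the most uneven in the mutant-labelled library after thinning, with a variance 4.26 times its mean against 1.53 in the wild-type-labelled library, and 22 UMIs in 1 cell. Acan was detected in like shares, 53.4% and 51.9%, but 14.5% of cells labelled mutant had 5 or more UMIs against 3.06%. After thinning, Scx-high cells had a UMI of 2.08 of the 9 genes on average in the wild-type-labelled library and of 1.78 in the mutant-labelled library.

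**Figure D4:**
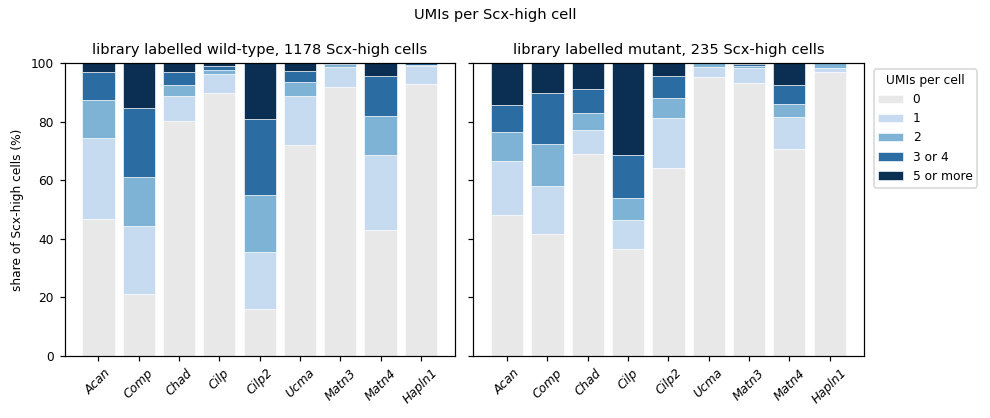
Share of Scx-high cells (%) with 0, 1, 2, 3 or 4, and 5 or more UMIs of each gene, before thinning, in the 1178 cells labelled wild-type (left) and the 235 labelled mutant (right). The dark segment for 5 or more UMIs covers 31.5% of cells for Cilp in the right panel and 0.849% in the left.

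Co-detection with Col2a1 was read after thinning, since deeper cells show more genes of every kind. Of the 1089 thinned cells labelled wild-type, 754 had a Col2a1 UMI, and 1 of the 9 genes was detected at least 1.5 times as often in them, against 11.9% of 8206 genes, so the 9 as a set did not stand above other genes. That gene was Ucma, in 17.2% (14.6 to 20.1) of cells with Col2a1 and 10.7% (7.64 to 14.6) of those without. Cilp was found in 5.04% (3.59 to 6.85) of cells with Col2a1 and in 37 of the 335 without. Comp, in 54.6% and 49.3%, and Cilp2, in 57.4% and 50.1%, differed little. Matn4 was in 34.7% (31.3 to 38.3) and 29.3% (24.4 to 34.4), intervals that overlap. Before thinning the shares of Comp were 82.1% and 54.5% and those of Matn4 61.3% and 24.6%, in cells whose depth also differed.

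Of the 216 thinned cells labelled mutant, 35 had a Col2a1 UMI, and 4 genes were detected at least 1.5 times as often in them, against 17.9% of 3897 genes. Cilp2 was in 54.3% (36.6 to 71.2) of cells with Col2a1 and 15.5% (10.5 to 21.6) of those without. Comp was in 21 of 35 (42.1% to 76.1%) and in 29.3% (22.8 to 36.5). Chad was in 14 of 35 (23.9% to 57.9%) and in 18.8% (13.4 to 25.2). Matn4 was in 34.3% (19.1 to 52.2) and 14.4% (9.60 to 20.3). The intervals of Chad overlap, as do those of Matn4. Cilp was in 51.4% and 47.0%. Acan was in 7 of 35 (8.44% to 36.9%) and in 31.5% (24.8 to 38.8), intervals that overlap, and before thinning the order of its shares turned, to a log2 ratio of 0.31. The other 3 genes had a UMI in 6 or fewer thinned cells and were not counted.

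Graded by Col2a1 count, Cilp in Scx-high cells labelled wild-type stood at 226 CPM (182 to 277) in the 134 cells without Col2a1, 81.4 with 1 or 2 UMIs, 21.5 with 3 or 4 and 17.1 (11.7 to 24.1) with 5 or more. Matn4 ran the other way, at 142 CPM without Col2a1 and at 292, 330 and 335 CPM in the other groups. Cells without Col2a1 were shallower, with a median of 2727.5 UMIs against 5067 in those with 5 or more. Comp, at 522 and 579 CPM, and Chad, at 125 and 139, were nearly level. Hapln1 was at 68.6 CPM without Col2a1 and at 15.1 to 20.3 CPM in the other groups, but 13 of the 28 UMIs behind the first value were in 1 cell, without which it was 37.1 CPM. Among cells labelled mutant, Chad was at 147 CPM in the 165 cells without Col2a1 and 536 in the 57 with 1 or 2 UMIs, Cilp2 at 107 and 348, and Matn4 at 128 and 329. The group with 3 or 4 held 11 cells, in which Matn4 reached 1201 CPM on 52 UMIs (945 CPM without the cell that held 14 of them). Cilp was at 898 and 778 CPM.

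**Figure D5:**
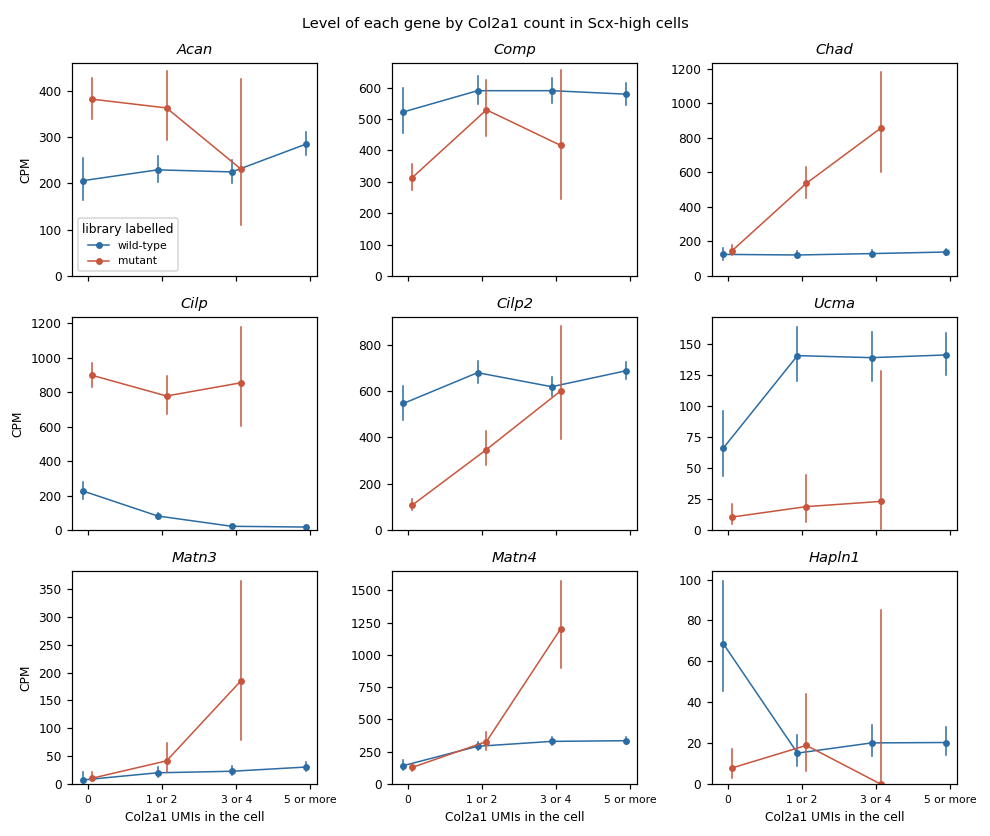
CPM of each gene in Scx-high cells grouped by their Col2a1 UMIs, before thinning, with exact 95% counting intervals, in the wild-type-labelled library (blue) and the mutant-labelled library (red, where the last point rests on 11 cells and the 2 cells with 5 or more are not drawn). The vertical scale differs between panels. Cilp falls from 226 to 17.1 CPM in blue and stays between 778 and 898 CPM in red.

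Outside the mesenchyme, in smaller classes of cells, the genes had few UMIs. Haemoglobin-rich cells, which should lack them and so give a measure of free RNA, had 2 or fewer UMIs of each of the 9 genes in either library. Immune cells labelled wild-type had 8 UMIs of Cilp2, or 16.5 CPM. Scx had a UMI in 62.1% of haemoglobin-rich and 69.8% of immune cells labelled wild-type, near the 69.1% of Scx-low mesenchymal cells. A few Scx UMIs in that library thus need not come from the cell itself. Cilp had 18 UMIs in 5 of 198 immune cells labelled mutant and 0 in 182 labelled wild-type. In the 33 endothelial cells labelled mutant, Chad had 13 UMIs, all in 1 cell (109 CPM), and Cilp 10 in 3 cells (83.6 CPM). In the 21 labelled wild-type, Comp had 5 UMIs in 4 cells (62.4 CPM) and Chad and Cilp had 0. Acan stood higher in mural cells, the cells of vessel walls. It had 62 UMIs in the 133 mural cells labelled wild-type, or 100 CPM, and all 62 fell in 36 of the 90 cells with a UMI of Myh11, the smooth muscle myosin. None fell in the 43 without, where a count of 0 allows up to 6.98% of cells with a UMI (exact interval to 8.22%). These cells were shallower, with a median of 2792 UMIs against 5001, so the value limits detection and not expression. In those 90 cells Comp had 5 UMIs and Cilp2 had 0. Col2a1 had 31. The 80 mural cells labelled mutant had 6 Acan UMIs, a ratio of 0.251 (0.0886 to 0.577). In the 58 Schwann-type cells labelled mutant, Matn4 had 21 UMIs in 8 cells (136 CPM) and Comp 12 in 4 cells (77.6 CPM). This class held 3 cells in the wild-type-labelled library.

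Of 40 other cartilage matrix and regulatory genes, 22 had 50 or more UMIs over the Scx-high cells of both libraries. Of these, 8 were lower by 2-fold or more in the mutant-labelled library, against 5.87% of all genes, and 7 higher by as much, against 10.7%. Their median log2 ratio was -0.30, against 0.28 over all genes. Among the 8 with the most UMIs, the type XI collagen gene Col11a2 was 7.96-fold lower (7.03 to 9.05), Col11a1 2.47-fold lower, and the small proteoglycans Dcn and Fmod 2.22- and 2.15-fold lower. Bgn was 1.81-fold higher (1.74 to 1.87), Thbs4, a relative of Comp, 1.56-fold and Col12a1 1.24-fold. These 8 include none of the 7 higher genes, which were looked up after their values were seen. They were Col27a1 at 8.23-fold (5.60 to 12.2), Thbs1 at 3.98-fold, the mineralization inhibitor Mgp at 3.34-fold (3.14 to 3.54), Epyc at 3.29-fold, Prelp at 2.68-fold, Ctgf at 2.19-fold and the large proteoglycan Vcan at 2.08-fold. The other lower genes were Col9a2, Pth1r and Prg4, at 3.19, 2.22 and 2.12-fold. Relative to the median of all genes, Ctgf and Vcan fall below 2-fold, as Chad did. Matn2 and Sox6, at ratios of 0.599 and 0.545, come to 2-fold lower on that footing.

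The genes whose levels were most like those of the members across the 1178 Scx-high cells labelled wild-type were collagens for some members and other genes for others. Correlations are Pearson's r over 3920 genes compared and share each cell's depth and library. The values in the 235 cells labelled mutant follow in parentheses, and up to 3 genes with r of at least 0.2 are given for each member. Acan was closest to Col15a1, r = 0.30 (0.33), and to the type VI collagen genes Col6a2, 0.24 (0.27), and Col6a1, 0.22 (0.32). Comp was closest to Col1a1, 0.27 (0.34), followed by Fmod, 0.25 (0.40), and Cilp2, 0.23 (0.37). Cilp2 was closest to Col1a1, 0.40 (0.33), Col1a2, 0.34 (0.30), and Col11a2, 0.30 (0.38). Matn4 was closest to Col11a2, 0.28 (0.35), Mfap4, 0.28 (0.48), and Fmod, 0.22 (0.27). Cilp was closest to Itih5, 0.40 (-0.04), followed by Postn, 0.35 (0.59), and Col5a1, 0.34 (0.62). Ucma was closest to Angptl7, 0.24 (0.09), Sparc, 0.22 (0.05), and Tpm1, 0.21 (0.13). Chad, Matn3 and Hapln1 had no gene at r of 0.2 or more.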

How the data were processed

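Cells released from tendon by enzymes were run on the 10x Genomics 3′ platform. Alignment to mm10 and the choice of barcodes by total UMI count were done by the authors in Cell Ranger, version 1.2.0 per the submitters' processing notes, while the methods name a later version. They deposited UMI counts per gene and cell, whole numbers without normalization. All barcodes were used.

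The genes, lists and thresholds were chosen with earlier results of these data known. All 9 genes, Scx and Col2a1 were named whatever their values. From a list of 40 other cartilage genes, the 8 with the most UMIs in Scx-high cells labelled wild-type were named, and for each member the 3 genes with the highest correlation, where r reached 0.2. Genes such as Myog, Tnmd, Myh11 and Tgfbr2 describe the cells. Cells with 30 or more Scx UMIs per 10000 were Scx-high. Other cells were haemoglobin-rich (over 50% of UMIs), of the type with 2 or more markers and at least 10 marker UMIs per 10000, Scx-low mesenchymal (4 or more of 11 markers) or unassigned. Scx-high cells kept that name whatever else they held.

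UMIs were summed per class and scaled to CPM. CPM ratios have exact conditional intervals, CPM exact Poisson intervals and shares exact Clopper-Pearson intervals, all at 95%. Shares by Col2a1 used cells thinned to 1500 UMIs (seed 1), which left out 89 and 19 Scx-high cells. A class at 0 was set at 3 counts for a fold. Background shares count genes with at least 50 UMIs over both classes or, for co-detection, a UMI in at least 10 cells. Doublets called by Scrublet, with an expected rate of 2%, were 0.423% and 0.193% of cells, too few for the caller to be relied on, and stayed in. The ratio and co-detection code was tested on simulated data. The alternatives were other Scx thresholds (15 and 60), filters on cells, other totals, centring, leaving out cells with markers of other types or of chondrocytes, and other thinning. Leaving out the 2 shared barcodes, or the cell with the most UMIs of a gene, and matched Scx levels were added after seeing the data. Gene positions are from GENCODE M21. Python 3.11.15, NumPy 2.4.6, SciPy 1.17.1 and scanpy 1.11.5 were used.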

Additional observations from a re-analysis of the deposited data

Results flagged for a closer look

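For 3 genes the direction of a ratio differed between classes or libraries. Each group is 1 library, and the differences were not tested. Comp in the mutant-labelled library was at 0.650 times its wild-type level in Scx-high cells and at 1.64 times in Scx-low mesenchymal cells. Matn4 was at 0.748 times in Scx-high cells and at 1.55 times in Scx-low mesenchymal cells. At matched Scx the first of these turned, but the intervals of the libraries overlapped there. Cilp in Scx-high cells was at 0.598 times its level in Scx-low mesenchymal cells in the wild-type-labelled library and at 3.56 times in the mutant-labelled library. Fewer Scx-high cells and a makeup of either class that may differ go with these ratios, and their part was not tested.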

How the results depend on the processing

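The count of genes at least 2-fold lower in Scx-high cells labelled mutant was 3 in all 13 alternatives. The count in Scx-low mesenchymal cells was 1 and became 2 at a Scx threshold of 60 and with each cell weighted equally. The counts of genes higher in Scx-high than in Scx-low mesenchymal cells, 8 and 7, went to 7 at a threshold of 60 and to 8 without cells carrying chondrocyte markers, and no others moved. The wild-type co-detection count of 1 became 2 at a threshold of 15, 0 at 60, 2 with cells thinned to 2500 UMIs, 6 without thinning and 0 with Col2a1 counted from 2 UMIs. The mutant count of 4 was 3 with a second seed and 6 without thinning. On the log2 scale, the co-detection ratio of Hapln1 in the wild-type-labelled library changed sign, to 0.031 with Col2a1 counted from 2 UMIs and 0.24 with a second seed, and that of Acan in the mutant-labelled library to 0.31 without thinning. The cause was not tested. The log2 ratio of Chad, 1.12, was 0.91 with the 20 most abundant genes left out of the total. Ucma and Hapln1 rest on 14 and 11 UMIs in Scx-high cells labelled mutant. No paired analysis was possible because each condition is 1 library and the result comes from no test.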

Other observations

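Scx-low mesenchymal cells also differed among themselves. In the wild-type-labelled library, the 354 with a UMI of the tendon marker Tnmd had 133 CPM of Cilp2 (114 to 154) and the 390 without had 13.8 (8.43 to 21.3). Comp was at 231 and 62.8 CPM and Cilp at 142 and 33.1. A Tnmd UMI was in 47.6% of Scx-low mesenchymal cells of this library and in 46.6% of its mural cells (1236 and 183 CPM). A single Tnmd UMI can therefore be free RNA and need not mark a tendon cell. The Cilp2 value without Tnmd was near that of immune cells labelled wild-type, 16.5 CPM on 8 UMIs. In the mutant-labelled library, the same split gave Comp at 240 CPM in 889 cells with Tnmd and 232 in 952 without, and Cilp at 267 and 217. Cilp2 was at 34.0 and 11.3 CPM there. Matn4 was lower with Tnmd, at 38.8 against 97.7 CPM, whereas in the wild-type-labelled library it was at 63.1 with Tnmd and 25.5 without. The shares of cells labelled mutant with a Matn4 UMI were alike, however. They were 6.75% (5.19 to 8.60) with Tnmd and 7.46% (5.87 to 9.31) without, and 1 cell of the class had 26 UMIs.

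Some members shared cells more than their separate shares give, and others did not. After thinning, Chad and Cilp2 occurred together in 21 Scx-high cells labelled mutant, where independent detection gives 10.4, and Chad and Matn4 in 16, against 8.44. In Scx-high cells of the wild-type-labelled library Comp and Chad shared 87 cells against 66.8. Comp and Cilp2 were close to independence there, 333 against 318, and Acan and Cilp shared fewer, 14 against 20.5. In Scx-low mesenchymal cells labelled mutant, Chad and Matn4 shared 17 against 1.71 and Chad and Cilp2 8 against 1.12. These counts are descriptions of single libraries.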
